A study of Camelus dromedarius with 10 samples.

Results

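The angiotensin system genes described here are AGT, ACE, AGTR1, AGTR2, MAS1, LNPEP, ENPEP and CTSA, which encode the precursor of the angiotensin peptides, enzymes that cut or trim these peptides, and their receptors. They were taken by name. A member was measured where its symbol is paired with an Ensembl gene ID in the supplementary gene tables of the study, by the camel name or else by the name of the human ortholog. Of the 8 genes named, 7 are paired with 1 of the 22444 IDs in the count table, and AGTR2 was not analysed here. The libraries came from the rostral supraoptic nucleus (SON) of male dromedary camels aged 4 to 5 years, taken from 1 side of the brain. In the control group (n = 5) the camels had food and water at all times, and in the water deprivation (WD) group (n = 5) they had food but no water for 20 days. Each library is 1 camel. Libraries are named here by group and sample number, as CON2, CON3, CON4, CON5 and CON13 for control and as WD6, WD7, WD8, WD9 and WD15 for WD. The labels name no genetic change and no drug in either group.

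Angiotensinogen, the product of AGT, is cut to angiotensin I, from which angiotensin converting enzyme (ACE) makes angiotensin II. Angiotensin II acts through the receptors AGTR1 and AGTR2, and it raises blood pressure, thirst and vasopressin release through AGTR1. The brain has an angiotensin system of its own in which astrocytes are the main source of angiotensinogen. The SON lies in the hypothalamus, and its large neurosecretory (magnocellular) neurones secrete vasopressin and oxytocin into the blood through the posterior pituitary. Glutamyl aminopeptidase (ENPEP) turns angiotensin II into angiotensin III, carboxypeptidases such as cathepsin A (CTSA) trim angiotensin peptides from the other end, and the insulin-regulated aminopeptidase LNPEP binds angiotensin IV and degrades oxytocin and vasopressin. MAS1 is the receptor of a shorter angiotensin peptide.

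No member passed the threshold of 0.05 on the adjusted p (edgeR's quasi-likelihood test, adjusted by Benjamini-Hochberg), which 0.499% of all 14432 genes passed. An unadjusted p under 0.05 was found for 2 of the 5 members tested, AGT and CTSA, both at higher values in WD, beside 9.31% of all genes (4.91% at higher values in WD). With DESeq2's Wald test, the tool of the study, 2 members passed, again AGT and CTSA, beside 1.27% of the 16447 genes to which it gave an adjusted p. Of the 5 members tested, 3 (AGT, CTSA and LNPEP) had a log2 fold change of WD over control above 0 and 2 (ACE and ENPEP) one below 0, with a median of 0.49 beside 0.02 over all genes, of which 51.9% were above 0. The receptors AGTR1 and MAS1 were near zero in both groups and were removed by the filter on low counts.

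Depth limits these values in some libraries more than in others. Between 1665098 and 8126641 read pairs were counted per library, of which 5 IDs without a paired symbol took between 27.7% and 76.1%. Levels are CPM, counts relative to library size, after TMM scaling, on which 1 read pair is worth 1.20 CPM in CON13, 0.475 CPM in WD6 and 0.0864 to 0.237 CPM in the other 8 libraries. No transcript lengths were used, so levels of different genes are not comparable as amounts of transcript. Sums of markers, and ratios of a gene to such a sum, use CPM as they stand. The tissue was checked by markers of magnocellular neurones. PDYN, which encodes prodynorphin, was detected in every library and rose in WD (log2 fold change 1.93, edgeR adjusted p = 3.0e-04), and the transcription factor genes SIM1 (-0.04) and OTP (-0.58) did not pass the test. AVP and OXT, which define these neurones, are not paired with an ID in the tables and were not analysed here. Of 5 oligodendrocyte lineage markers none passed and 1 had a log2 fold change above 0, FOXJ1 of ependyma was at 0.25 on that scale, and VIP of the neighbouring suprachiasmatic nucleus was not tested, with a level of at most 2.39 CPM in any library.

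**Figure D1:**
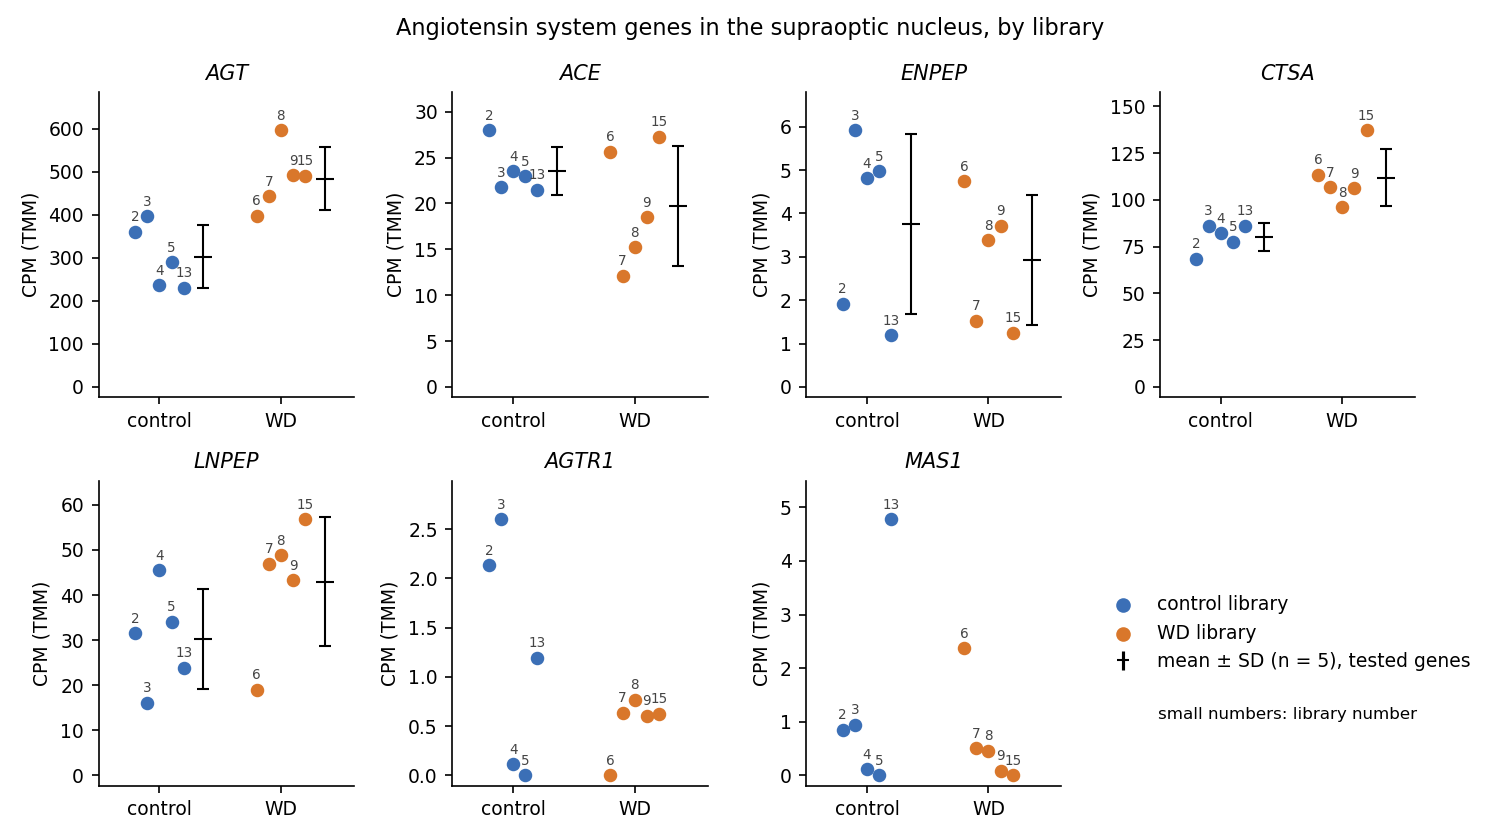
Level of each measured angiotensin system gene in every library, in CPM after TMM scaling on a linear axis that differs between panels. Points are libraries, small numbers give the library number, and black bars show the mean ± SD (n = 5) for the 5 tested genes. AGT ran from 231 to 397 CPM in control and from 398 to 596 CPM in WD, whereas AGTR1 stayed at or below 2.60 CPM in every library.

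The precursor gene AGT (ENSCDRG00005014204) was counted in every library, with 193 read pairs in CON13 and 838 to 5689 in the other libraries. Its level was 361 CPM in CON2, 396.7 in CON3, 236.6 in CON4, 289 in CON5 and 230.8 in CON13. In WD it was 397.7 CPM in WD6, 442.6 in WD7, 595.6 in WD8, 491.6 in WD9 and 490.9 in WD15. All 5 WD libraries thus lay above all 5 controls, but WD6 and CON3 lay closer together than the counting error of either (95% Poisson interval 371 to 426 CPM for WD6 and 378 to 416 CPM for CON3). Groups did not overlap for 2 of the 5 tested members, AGT and CTSA, and for 2.62% of all genes tested (1.34% with WD higher). When DESeq2's size factors, library totals or library totals without the 5 dominant IDs replaced TMM, WD6 was below CON3 and 4 of 5 WD libraries lay above all controls.

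The mean level of AGT was 302.8 ± 74.1 CPM in control and 483.7 ± 73.7 CPM in WD (SD, n = 5 each). The log2 fold change was 0.67 with an SE of 0.19 and a 95% interval of 0.27 to 1.08, or 1.59-fold (1.21 to 2.11). The unadjusted p was 0.00259 and the adjusted p was 0.192 in edgeR's quasi-likelihood test over all genes, whereas DESeq2's Wald test gave a log2 fold change of 0.68 and an adjusted p of 0.0214. AGT was gene 194 of 14432 in order of edgeR's p, within the first 1.34%. The difference between the tools lies in the p and not in the size of the fold change.

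Markers of astrocytes, the main source of angiotensinogen in brain, were read in the same libraries. The summed level of the 6 astrocyte markers paired with an ID (ALDH1L1, GJA1, ALDOC, SLC6A11, ACSBG1 and PLA2G7) ran from 381 to 506 CPM in control and from 537 to 697 CPM in WD, without overlap. The larger part of this sum is ALDOC, a glycolytic enzyme of astrocytes, at 276 ± 46.6 CPM in control and 415 ± 72.7 CPM in WD (adjusted p = 0.229 by edgeR and 0.0386 by DESeq2). None of the 6 passed edgeR's test, 4 had a log2 fold change above 0, and SLC6A11 (-0.31) and ACSBG1 (-0.81) were below 0. No paired marker of astrocytes was at 0 in all libraries. The level of AGT per CPM of these markers was 0.703 ± 0.219 in control and 0.806 ± 0.139 in WD (SD, n = 5 each), with groups that overlapped and a log2 ratio of the means of 0.20. Over the 10 libraries AGT and the summed markers had a Pearson correlation of 0.61 on the log2 scale, and -0.13 once group means were removed. The same pair of values for AGT was 0.57 and 0.19 with microglial markers, 0.50 and 0.32 with endothelial markers, and 0.56 and -0.77 with magnocellular markers, a sum that is mostly PDYN (162 CPM in control and 618 CPM in WD). It was -0.42 and 0.26 with mural markers, 0.02 and 0.25 with oligodendrocyte lineage markers, -0.39 and 0.24 with VIP, and 0.16 and 0.16 with FOXJ1. Points of this kind share the library, its depth and its scaling. The defining markers GFAP, AQP4 and SLC1A3 are not paired with an ID and were not analysed here, and the part of astrocyte content in the value of AGT was not tested. In bulk RNA, more or fewer cells of a type cannot be told apart from more or less RNA per cell.

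**Figure D2:**
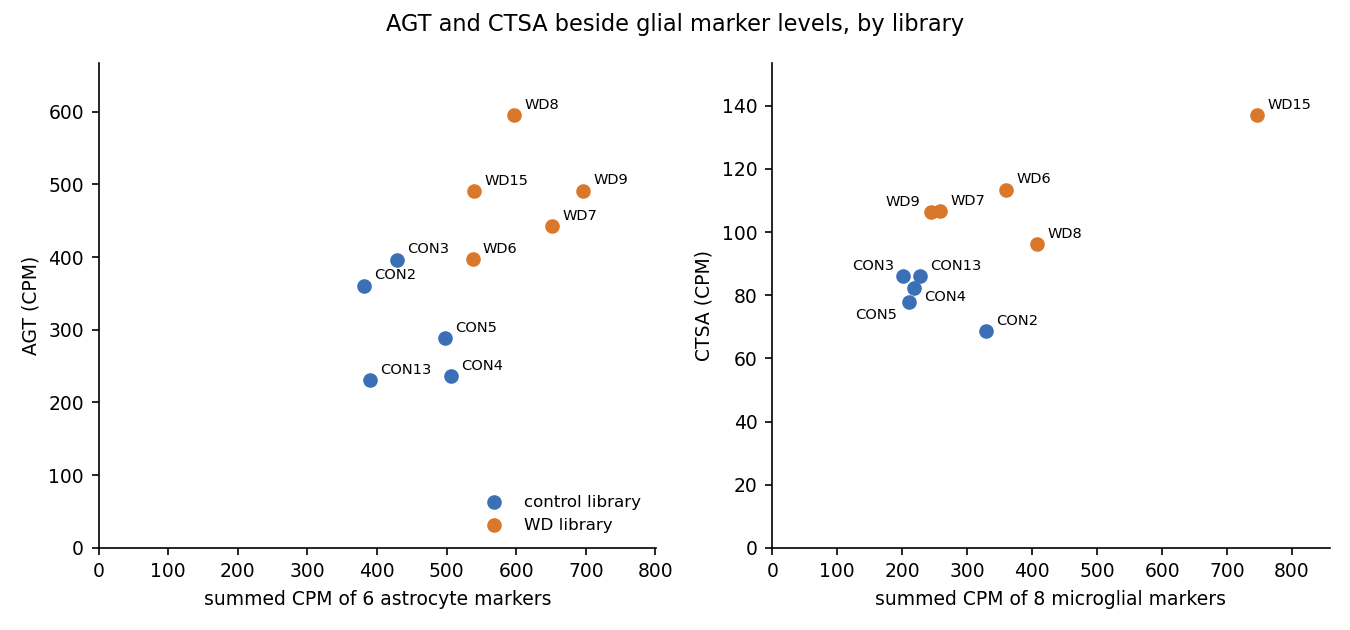
Levels of AGT against the summed level of 6 astrocyte markers (left) and of CTSA against that of 8 microglial markers (right), in CPM after TMM scaling, with 1 point for each library. WD libraries (orange) lie to the right of and above control libraries (blue) in the left panel, WD6 and CON3 by less than their counting error in AGT, and the marker sum there reaches 506 CPM in control and starts at 537 CPM in WD. In the right panel the marker sums of both groups overlap.

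The enzyme that makes angiotensin II, ACE (ENSCDRG00005021606, annotated as angiotensin-converting enzyme-like), was at 28.0 CPM in CON2, 21.8 in CON3, 23.5 in CON4, 23.0 in CON5 and 21.5 in CON13. In WD it was at 25.6 CPM in WD6, 12.1 in WD7, 15.2 in WD8, 18.5 in WD9 and 27.3 in WD15. Control libraries lay close together (coefficient of variation 11.1%), WD libraries were spread (33.2%), and WD7, WD8 and WD9 lay below every control whereas WD6 and WD15 lay within the control range. The means were 23.6 ± 2.60 CPM in control and 19.7 ± 6.56 CPM in WD (SD, n = 5 each). The log2 fold change was -0.29 (SE 0.23, 95% interval -0.77 to 0.19), with an adjusted p of 0.761 by edgeR's test and 0.762 by DESeq2. The direction of ACE was not the same in shallow and deep libraries. Among the 5 libraries with the fewest read pairs outside the dominant IDs (3 control, 2 WD) the log2 ratio of the means was 0.16, and among the 5 deepest (2 control, 3 WD) it was -0.61. The difference between these ratios was not tested. With depth group as a covariate over all 10 libraries, the log2 fold change of ACE was -0.26 (SE 0.19) with an adjusted p of 0.654 by edgeR.

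ACE is abundant in endothelium. Of 8 endothelial markers, 7 had a log2 fold change above 0 and none passed edgeR's test, with a median of 0.38 and summed levels of 273 to 468 CPM in control and 292 to 586 CPM in WD. The level of ACE per CPM of these markers was 0.0685 ± 0.0127 in control and 0.0455 ± 0.0128 in WD (SD, n = 5 each), and the groups overlapped. Per CPM of the 3 mural markers named with ENPEP it was 0.193 ± 0.0269 in control and 0.214 ± 0.0640 in WD, also with overlap, so the order of the means depended on the markers taken.

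ENPEP (ENSCDRG00005008426), the aminopeptidase that makes angiotensin III and a gene of pericytes in brain, had 9, 25, 42, 34 and 1 read pairs in CON2, CON3, CON4, CON5 and CON13, and 10, 12, 22, 43 and 6 in WD6, WD7, WD8, WD9 and WD15. Its level was between 1.20 and 5.91 CPM in control and between 1.25 and 4.75 CPM in WD, ranges that cover each other almost fully. The mean was 3.77 ± 2.07 CPM in control and 2.92 ± 1.49 CPM in WD (SD, n = 5 each). The log2 fold change was -0.51 (SE 0.49, 95% interval -1.54 to 0.52) with an adjusted p of 0.815 by edgeR's test, an interval that runs from 0.344-fold to 1.44-fold of the control level. With CON13 and WD6 left out together, the log2 fold change was -0.82 (adjusted p = 0.494 by edgeR). Summed mural markers (PDGFRB, ACTA2 and CSPG4) were at 104 to 159 CPM in control and 68.4 to 112 CPM in WD, 1 of the 3 had a log2 fold change above 0, and ENPEP per CPM of them was 0.0307 ± 0.0183 in control and 0.0308 ± 0.0134 in WD (SD, n = 5 each).

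CTSA (ENSCDRG00005019078), a lysosomal serine carboxypeptidase that also protects other lysosomal enzymes, was at 68.5 CPM in CON2, 86.1 in CON3, 82.3 in CON4, 77.7 in CON5 and 86.1 in CON13. In WD it was at 113.4 CPM in WD6, 106.6 in WD7, 96.2 in WD8, 106.4 in WD9 and 137.1 in WD15. Every WD library lay above every control, from WD8 against CON3, although the counting interval of CON13, from 72 read pairs, reached 108 CPM. The gap remained with DESeq2's size factors and with library totals without the dominant IDs, and with library totals alone WD6 lay within the control range. CTSA had the least spread of the 5 tested members in both groups, with a coefficient of variation of 9.18% in control and 13.7% in WD.

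The mean of CTSA was 80.1 ± 7.35 CPM in control and 111.9 ± 15.4 CPM in WD (SD, n = 5 each). The log2 fold change was 0.49 (SE 0.16, 95% interval 0.15 to 0.82), or 1.40-fold (1.11 to 1.76). The unadjusted p was 0.00662 and the adjusted p 0.266 in edgeR's quasi-likelihood test, and DESeq2's Wald test gave the same log2 fold change of 0.49 with an adjusted p of 0.0498, just under the threshold. CTSA was gene 358 of 14432 in order of edgeR's p, within the first 2.48%.

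As a lysosomal gene, CTSA is high in phagocytes, and markers of microglia were at higher values in WD as well. All 8 microglial markers (AIF1, CX3CR1, P2RY12, CSF1R, ITGAM, TREM2, TYROBP and SPI1) had a log2 fold change above 0 with a median of 0.83, and none passed either test. Their summed level was 201 to 329 CPM in control and 244 to 746 CPM in WD, with groups that overlapped. WD15 had the highest sum and the highest CTSA, whereas WD8 had the second highest sum and the lowest CTSA of the WD libraries, and CON2 had the highest control sum and the lowest CTSA of all. Over the 10 libraries the Pearson correlation of CTSA with this sum on the log2 scale was 0.64, and 0.32 after the mean of each group was removed. The same pair of values for CTSA was 0.84 and 0.27 with magnocellular markers and 0.64 and -0.19 with astrocyte markers. It was 0.26 and -0.18 with endothelial markers, -0.71 and -0.37 with mural markers, and -0.17 and -0.07 with oligodendrocyte lineage markers. With VIP it was -0.67 and -0.34, and with FOXJ1 0.30 and 0.45. CTSA per CPM of the microglial markers was 0.352 ± 0.0839 in control and 0.316 ± 0.109 in WD (SD, n = 5 each). CTSD, another lysosomal protease, which can release angiotensin I, had a log2 fold change of -0.03 (95% interval -0.41 to 0.35). The part of microglial content in the value of CTSA was not tested.

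LNPEP (ENSCDRG00005008715), the aminopeptidase that degrades oxytocin and vasopressin, was at 31.6 CPM in CON2, 16.1 in CON3, 45.6 in CON4, 34.1 in CON5 and 23.9 in CON13. In WD it was at 19.0 CPM in WD6, 46.9 in WD7, 48.9 in WD8, 43.3 in WD9 and 56.9 in WD15. WD7, WD8 and WD15 lay above every control, WD9 lay below CON4, and WD6 was the second lowest of all 10 libraries. The means were 30.3 ± 11.1 CPM in control and 43.0 ± 14.3 CPM in WD (SD, n = 5 each), and the log2 fold change was 0.49 (SE 0.28, 95% interval -0.09 to 1.07) with an adjusted p of 0.630 by edgeR's test and 0.604 by DESeq2. Leaving out WD6 gave the lowest unadjusted p of the 10 fits without 1 library, 0.0120, with an adjusted p of 0.233. The log2 fold change lay between 0.30 (without CON3) and 0.68 (without CON4) in those fits.

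The receptors were at the edge of detection. AGTR1 (ENSCDRG00005013859), the receptor through which angiotensin II raises vasopressin release, had 10 read pairs in CON2, 11 in CON3, 1 in CON4, 0 in CON5 and 1 in CON13, and 0 in WD6, 5 in WD7, 5 in WD8, 7 in WD9 and 3 in WD15. Controls thus held both the highest libraries and 1 at zero, and CON2 and CON3 held nearly all of the 23 control read pairs. Pooled over a group, 23 read pairs in control correspond to 0.909 CPM (95% Poisson interval 0.576 to 1.36) and 20 in WD to 0.609 CPM (0.372 to 0.941), and these intervals overlap. They cover counting error only. A count of 0 allows up to 0.439 CPM in CON5 but up to 1.42 CPM in WD6, more than the level in each of the other 4 WD libraries.

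MAS1 (ENSCDRG00005014532) had 4, 4, 1, 0 and 4 read pairs in CON2, CON3, CON4, CON5 and CON13, and 5, 4, 3, 1 and 0 in WD6, WD7, WD8, WD9 and WD15. Both groups came to 13 read pairs, which correspond to 0.514 CPM in control (95% Poisson interval 0.274 to 0.879) and 0.396 CPM in WD (0.211 to 0.677). Both receptors were removed by edgeR's filter, whose level 2 control libraries and 0 WD libraries reached for AGTR1, and 1 control library and 0 WD libraries for MAS1. Fitted without the filter, AGTR1 had a log2 fold change of -0.97 (SE 1.03, adjusted p = 0.841 by edgeR) and MAS1 of -0.70 (SE 1.28, adjusted p = 0.926), and no difference was detectable at this depth.

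The other genes of the pathway were taken from a list of 18 (proteases that act on angiotensinogen, peptidases of the shorter peptides, and receptors), of which 15 are paired with an ID and 10 were tested. None passed edgeR's test or DESeq2's, 5 had a log2 fold change above 0 and 5 below 0, and the median was 0.09. An unadjusted p under 0.05 was found for 2 of the 10, beside 9.31% of all genes. ATP6AP2, an accessory subunit of the vacuolar proton pump, was at 42.3 ± 8.94 CPM in control and 64.6 ± 17.2 CPM in WD (SD, n = 5 each), with a log2 fold change of 0.61 (SE 0.21) and an adjusted p of 0.323 by edgeR's test. NLN, neurolysin, which cuts angiotensin I and other short peptides, was at 23.6 ± 3.20 CPM in control and 16.4 ± 1.76 CPM in WD, with a log2 fold change of -0.52 (SE 0.19) and an adjusted p of 0.348. The other tested genes had log2 fold changes of -0.07 (KLK1, tissue kallikrein), -0.63 (ANPEP, which makes angiotensin IV), -0.31 (RNPEP, aminopeptidase B), 0.43 (MME, neprilysin), 0.33 (PREP, prolyl endopeptidase), 0.44 (PRCP, a lysosomal carboxypeptidase of angiotensin II) and 0.21 (DPP3, which degrades angiotensin II), with edgeR adjusted p of 0.633 (PRCP) to 0.982 (KLK1). Groups overlapped for all 10, for NLN only in that WD8 (19.05 CPM) lay above CON2 (18.78 CPM). CTSG, CMA1 and CPA3, proteases of granulocytes and mast cells that can act on angiotensin peptides, had 30, 34 and 69 read pairs over all libraries and were not tested by edgeR.

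**Figure D3:**
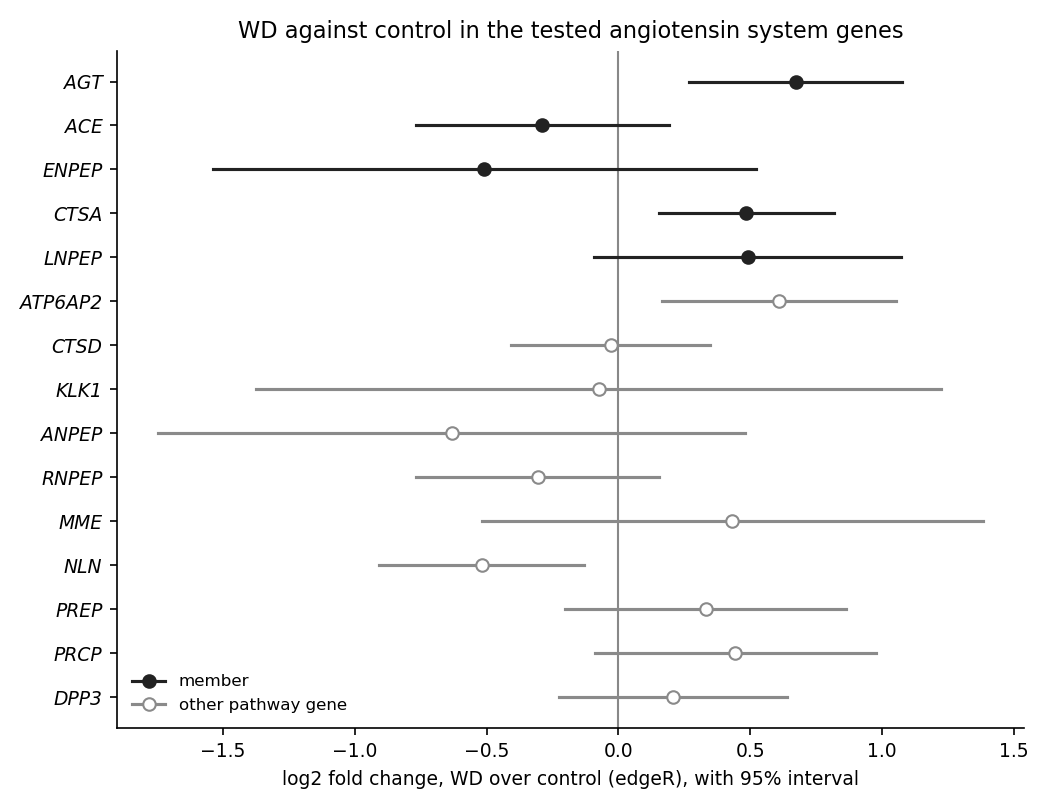
Log2 fold change of WD over control with its 95% interval from edgeR, for the 5 tested members (filled) and the 10 other tested genes of the pathway (open). Intervals of AGT, CTSA, ATP6AP2 and NLN exclude 0 before adjustment, and the adjusted p of these 4 genes was between 0.192 and 0.348.

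The fold changes of AGT and CTSA depended little on the setting, and their calls depended on the test. Over 21 alternatives the log2 fold change of AGT was between 0.56 and 0.82 and that of CTSA between 0.41 and 0.63. DESeq2's Wald test was the 1 alternative under which either passed the threshold. With library totals as the only scaling, the SE of AGT grew to 0.43 and its unadjusted p was 0.0623. With depth group as a covariate, under which 224 genes (1.55%) passed, the adjusted p by edgeR was 0.0607 for AGT and 0.0719 for CTSA. Within the 5 shallower libraries the log2 ratio of the means was 0.43 for AGT and 0.64 for CTSA, and within the 5 deeper libraries it was 0.96 and 0.37. With CON13 and WD6 left out together, a choice made after the data were seen, AGT was at 0.64 (adjusted p = 0.192 by edgeR) and CTSA at 0.48 (0.226), and no member passed.

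**Figure D4:**
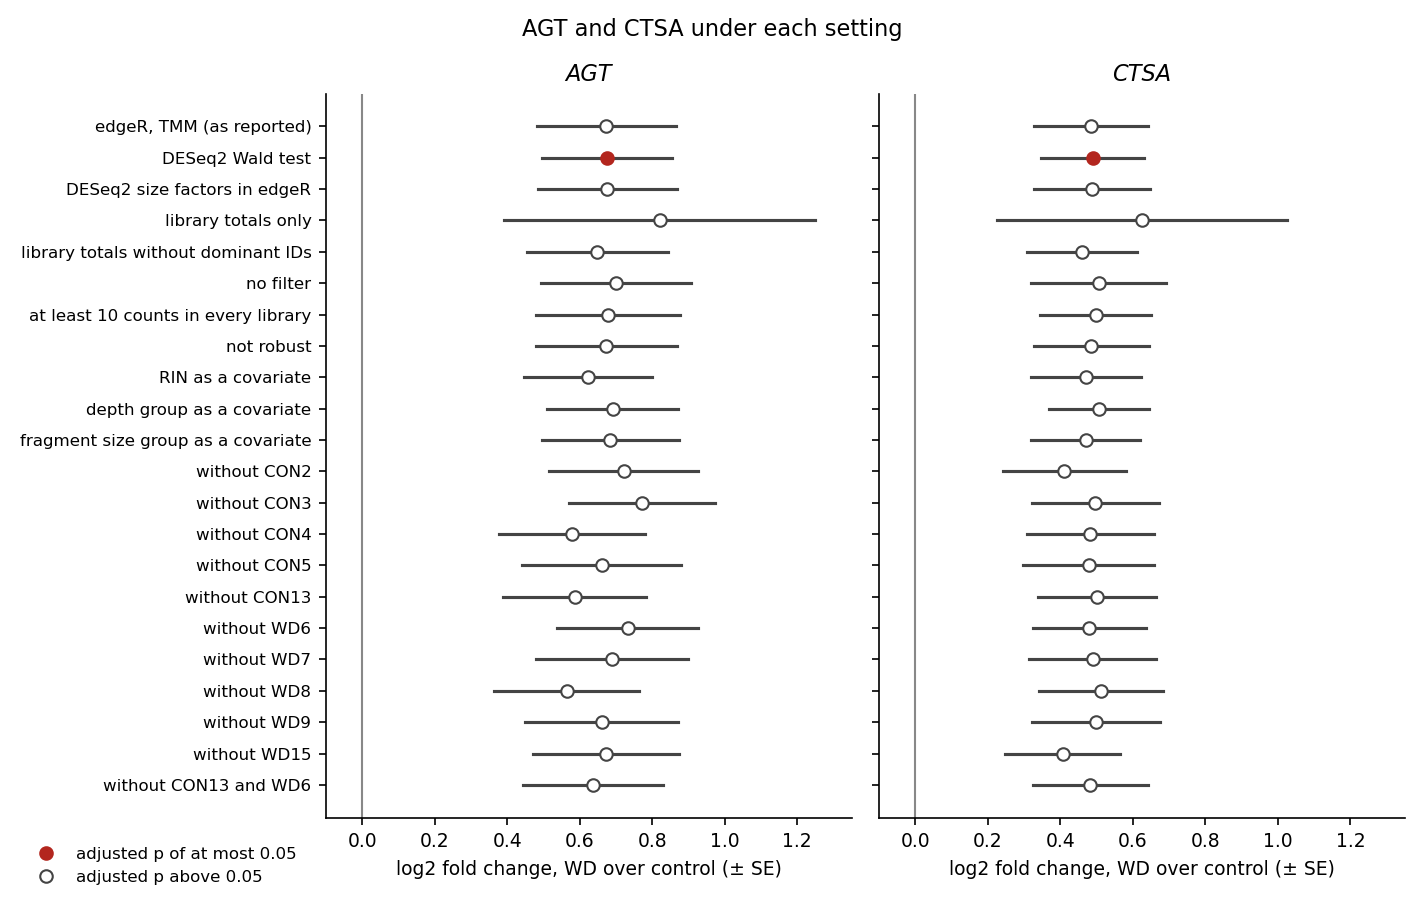
Log2 fold change (± SE) of AGT (left) and CTSA (right) under the test as reported and 21 alternatives, with filled red points where the adjusted p is at most 0.05. The points stay between 0.56 and 0.82 for AGT and between 0.41 and 0.63 for CTSA, and the red points are those of DESeq2's Wald test.

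AGT and CTSA were also set side by side library by library. Their Pearson correlation over the 10 libraries was 0.58 on the log2 scale, and -0.33 after the mean of each group was removed. The other pairs among the 5 tested members had correlations between -0.38 and 0.31 over the 10 libraries. These are descriptions of 10 points that share library, depth and scaling.

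The 5 genes whose log2 CPM was most like that of AGT over the 10 libraries, among 3359 tested genes with a paired symbol, were ZNF496 (r = 0.911), NWD1 (0.907), EZH2 (0.885), SPP1 (0.884) and CPPED1 (0.873). Of these, SPP1, which encodes the secreted phosphoprotein osteopontin, passed edgeR's quasi-likelihood test, with 69.1 CPM in control, 164 CPM in WD, a log2 fold change of 1.23 and an adjusted p of 0.0239. NWD1 was at 133 CPM in control and 200.2 CPM in WD, without overlap of the groups and with an adjusted p of 0.172. The 5 most like CTSA were MYRIP (r = 0.927), ZNF593 (0.920), SUV39H2 (0.915), PARP8 (0.906) and ARHGAP26 (0.895). Of these, ZNF593 (log2 fold change 1.63, adjusted p = 0.0102) and PARP8 (0.89, adjusted p = 0.0234) passed edgeR's test. Genes that differ between the groups as AGT and CTSA do can score high on this measure by that alone. After the mean of each group was removed, r was between 0.60 (CPPED1) and 0.93 (EZH2) for the 5 genes most like AGT. For the 5 most like CTSA it was between 0.60 (PARP8) and 0.77 (SUV39H2).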

How the data were processed

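The authors aligned reads from both ends of stranded, ribosome-depleted libraries to the dromedary assembly Camdro2 with STAR and counted pairs per gene with featureCounts. They deposited these raw counts for 22444 gene IDs. The annotation release, the strand setting and the treatment of reads shared between genes are not given in the sources used here, and values of overlapping or near-identical genes are therefore uncertain. The deposited table of normalized values and the authors' comparison columns (fold changes and p-values) were not used, and 0 count columns were left out.

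Counts were fitted with edgeR 4.0.16 in R 4.3.3 (TMM, filterByExpr by group, robust quasi-likelihood F test, Benjamini-Hochberg adjustment over 14432 genes, threshold 0.05), and with DESeq2 1.42.0 as an alternative. SE values were derived from the fold change and its F statistic (absolute log2 fold change over the root of F). Log2 CPM in correlations use a prior count of 0.5. The edgeR step was tested on simulated counts. Read pairs per library and their weight are given above, and Poisson intervals cover counting error only. A count of 0 is taken to allow 3 counts. Figures were drawn with Python 3.11.15 and matplotlib 3.10.9.

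Symbols came from the study's supplementary gene tables, which pair 4316 IDs. The tables are shortened here. AGTR2 and 3 other pathway genes (THOP1, AGTRAP and MRGPRD) are not paired. No sequence or annotation of this assembly was used, and no coordinates are given. The members, the pathway list and the marker lists were chosen with earlier results of these data known. Genes named are the members, that pathway list, the marker lists, and the 5 genes with the highest Pearson correlation to AGT and to CTSA. Results on some genes of the pathway list are not reported here. Alternatives were other scalings and filters, a fit that is not robust, RNA integrity number (RIN), depth group and fragment size group (below or above 300.0 bp) as covariates, and each library left out in turn.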

Additional observations from a re-analysis of the deposited data

Results flagged for a closer look

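Single libraries far from the other 4 of their group were looked for in 44 groups (22 measured genes of the pathway in 2 conditions) by Dixon's test at its 95% critical value, and 8 were found. Chance flags about 1 in 20 groups of normal values of equal precision, a rate that does not hold for groups with few read pairs or with libraries of unequal depth, as here. Of these, 3 were in the receptors AGTR1 and MAS1. AGTR1 was at 0 CPM in WD6 against a lowest value of 0.605 CPM in the other WD libraries. MAS1 was at 4.78 CPM (4 read pairs) in CON13 and at 2.37 CPM (5 read pairs) in WD6, against at most 0.946 CPM in the other controls and 0.510 CPM in the other WD libraries. The other 5 were KLK1 in WD6 at 18.5 CPM (39 read pairs), CPA3 in CON13 at 8.37 CPM (7 read pairs), CPA3 in WD8 at 3.53 CPM (23 read pairs), DPP3 in CON13 at 13.2 CPM (11 read pairs) and DPP3 in WD6 at 32.3 CPM (68 read pairs). CON13 and WD6, in which 1 read pair weighs most, hold 7 of the 8.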

How the results depend on the processing

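Of the results, the number of genes past the threshold depended most on the processing. It was 72 as reported, 209 with DESeq2's Wald test, 10 with library totals only, 224 with depth group as a covariate, and 40 (without CON3) to 102 (without WD6) with 1 library left out, with 42 without CON5. The number of members past the threshold was 0 as reported, 2 with DESeq2's Wald test (AGT at 0.68 and CTSA at 0.49 on the log2 scale) and 0 under the other 20 alternatives. The cause of the difference between the tools was not tested. With 1 library left out, the log2 fold change was 0.56 to 0.77 for AGT (adjusted p 0.104 to 0.452 by edgeR), 0.41 to 0.51 for CTSA (0.191 to 0.634), 0.30 to 0.68 for LNPEP, -0.44 to -0.16 for ACE and -0.71 to -0.32 for ENPEP. None of the 5 tested members changed its direction under these alternatives, while within the shallower libraries alone the log2 ratio of ACE was 0.16, against -0.61 within the deeper ones. The number of tested members whose groups did not overlap was 2 with TMM, 1 with DESeq2's size factors, 1 with library totals without the dominant IDs and 0 with library totals only. ENPEP has no value where at least 10 counts are required in every library. No paired analysis was possible because control and WD libraries share no sample number. With 1 read pair worth 1.20 CPM in CON13, levels of AGTR1, MAS1 and ENPEP are not resolved in that library.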
